A study of Mus musculus with 14 samples.

Results

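The 34 genes described here encode enzymes, carriers and membrane proteins that break down fatty acids in mitochondria and peroxisomes, with a few that switch fuel use or handle ketone bodies. They were chosen as a named list, with earlier results of these data known. A gene was followed through probe sets (short groups of array probes) annotated to its symbol alone. All 34 had at least 1 such probe set, 55 in all, out of 12394 genes and 20393 probe sets with a single symbol on the arrays. Of the 34 members, 16 had several probe sets, and the one with the highest mean in a table stood for the gene.

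RNA came from mouse small intestine, in 4 groups. Crypts, the epithelial pockets where stem cells divide and Paneth cells sit, and villi, the fingers lined chiefly by absorptive enterocytes, were isolated from C57BL/6 mice 12 weeks old, with 3 arrays per group. Endoderm, which forms the epithelium, and mesenchyme, which forms connective tissue and muscle, were separated after collagenase treatment of intestine at embryonic day 12 (E12), with 4 arrays per layer, from pools of 10 to 12 fetuses (3 arrays) or of 35 fetuses (1 array). The labels name no fetal strain, no genotype or treatment is named for any group, and there is no sort that would isolate 1 cell type. The 6 adult arrays and the 35-fetus pair form an 8-array table, the other 6 E12 arrays form a second table, and the tables were scaled separately, so tests stay within 1 table.

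Mitochondrial beta-oxidation starts when the carnitine shuttle brings long-chain fatty acids across the mitochondrial membranes, and then shortens them in repeated cycles of dehydrogenation, hydration, dehydrogenation and thiolysis. Peroxisomes shorten very long-chain and branched fatty acids by a related set of enzymes that produce hydrogen peroxide, and hand the shortened products on to mitochondria. In the small intestine, enterocytes take up dietary fat and burn some of it, and many of these genes are known targets of the fatty acid receptor PPARα.

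Values are log2 signals, so that a difference of 1 is a 2-fold change. Differences are given with the standard error (SE) of the limma fit, and a gene was called when its p, adjusted over all genes tested by the Benjamini-Hochberg method, was under 0.05. The p-values measure only the spread between these samples. Genes were tested when their signal passed the 30th percentile of the table (5.782 in the 8-array table and 4.74 in the 6-array table) in at least 3 arrays, and a signal under it is near background. The lowest correlation between replicate arrays of a group was 0.9605 in the 8-array table and 0.9905 in the 6-array table. In adult samples all 6 enterocyte genes were called higher in villi and all 5 Paneth cell genes lower. Of the enterocyte genes, Lct was under the 30th percentile in every crypt array and passed the filter through villi alone. Of 7 stromal genes 2 (Col3a1 and Lum) and of 5 smooth muscle genes 1 (Cnn1) lay under the 30th percentile in every adult array, and the others lay above it in all of them. In the 6-array table all 6 epithelial genes were called higher in endoderm, and all 7 stromal and 5 smooth muscle genes higher in mesenchyme. Of the smooth muscle genes, Myh11 passed the filter through mesenchyme alone. In such bulk samples, fewer cells of a type and less RNA per cell cannot be told apart.

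**Figure D1:**
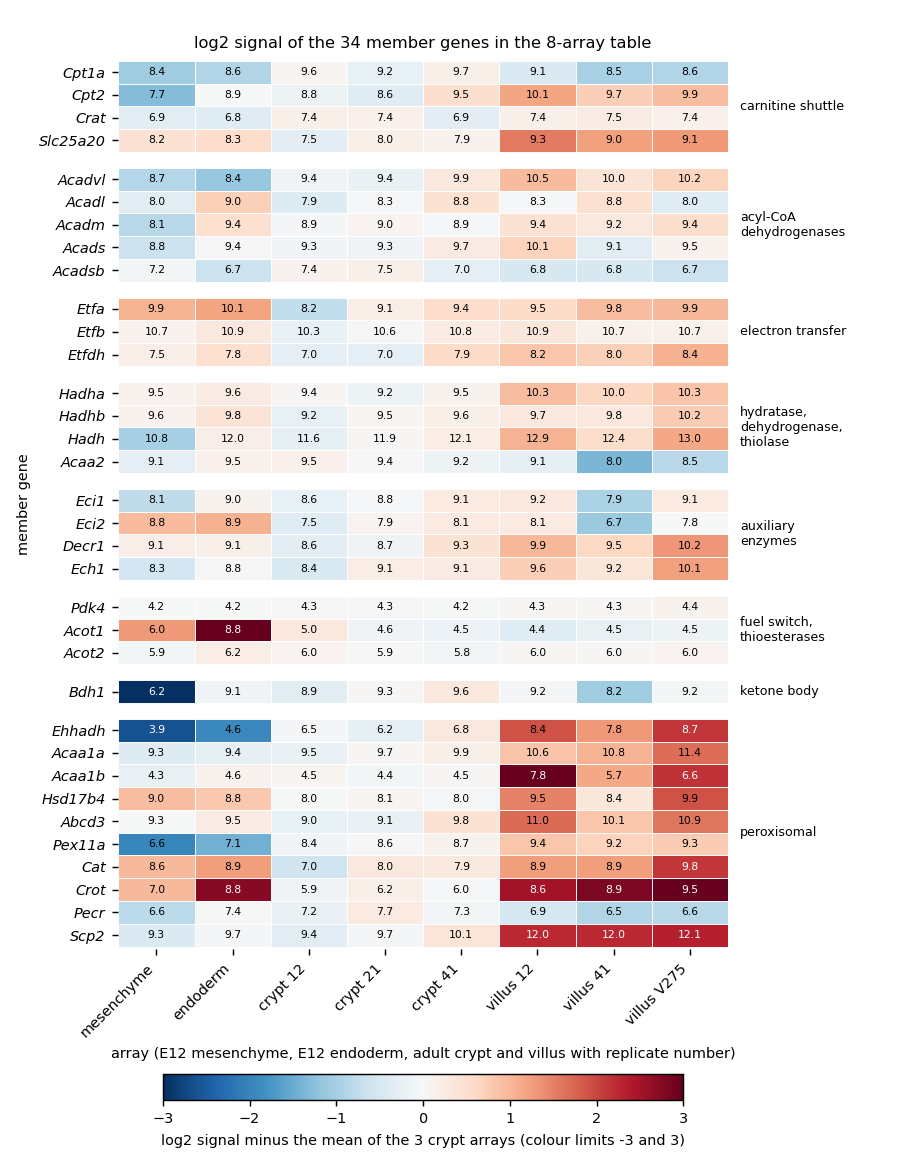
Each row is 1 of the 34 members, ordered by role, and each column 1 array of the 8-array table. The printed number is the log2 signal, and the colour is that signal minus the mean of the 3 crypt arrays. In the peroxisomal block the 3 villus columns are red for all members but Pecr, Acot1 is darkest in E12 endoderm, and Bdh1 is lowest in E12 mesenchyme.

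Villi were compared with crypts to ask how these genes differ along the adult axis. Most peroxisomal members were higher in villi. Of 10, 9 could be tested, 8 of these were called higher and 1 lower, and their median difference was 1.38. Peroxisomal genes outside the member list were called less often. Of 20 other enzymes and carriers tested, 3 were called higher and 2 lower (median 0.21). Of 13 assembly genes, 4 were called higher and 1 lower (median 0.09). Mitochondrial and related members were mixed, with 8 of 21 tested called higher, 3 lower and a median difference of 0.43. This set was drawn by role and not by measured location, and holds all members but Bdh1 and the 10 peroxisomal ones. It thus includes the auxiliary enzymes, among them Eci2 and Ech1, and cytosolic Acot1, which was not tested here. Over all members 16 of 31 were called higher and 4 lower. Across all 9962 genes tested, 16.9% were called higher and 15% lower, with a median difference of 0.00. Taken array by array, the median peroxisomal member stood 1.47, 1.03 and 1.91 above the crypt mean in villus 12, 41 and V275. The median member of the mitochondrial and related set stood 0.46, 0.33 and 0.52 above it. Both sets thus had their lowest villus value in villus 41 and their highest in villus V275.

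Crot, which attaches carnitine to the medium-chain products of peroxisomes so that they can leave for mitochondria, had the largest difference of any tested member. Its log2 signal was 5.93, 6.24 and 6.02 in crypts 12, 21 and 41, and 8.59, 8.89 and 9.48 in villi 12, 41 and V275. The crypt arrays were just above the 30th percentile, and every villus array was far above all of them. The difference was 2.93 ± 0.23 (SE, n = 3 per group), or 7.6-fold, with a limma adjusted p of 0.00025. Scp2, which encodes both a peroxisomal thiolase for branched chains and a sterol carrier protein, gave 9.41, 9.68 and 10.14 in crypts and 12.00, 12.01 and 12.07 in villi. The villus arrays were nearly level with one another, and the groups did not overlap. The difference was 2.28 ± 0.20, or 4.87-fold (limma adjusted p = 0.00033), and the other 3 probe sets of Scp2 were also higher in villi, by 0.90, 1.49 and 1.66.

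The tested enzymes of the peroxisomal cycle were all called higher in villi. Ehhadh, the bifunctional enzyme for straight chains and a classical PPARα target, read 6.45, 6.25 and 6.83 in crypts and 8.42, 7.82 and 8.65 in villi, a difference of 1.79 ± 0.25 (limma adjusted p = 0.0018). Hsd17b4, the bifunctional enzyme that also handles branched chains and bile acid precursors, read 8.02, 8.09 and 7.99 in crypts and 9.51, 8.39 and 9.95 in villi. The crypt values were tightly grouped, while villus 41 was well below the other villi though still above all crypts, and the difference was 1.25 ± 0.36 (limma adjusted p = 0.032). The thiolase Acaa1a differed by 1.19 ± 0.23 (limma adjusted p = 0.0069). Its near-identical copy Acaa1b was too dim for the test, at 4.39 to 4.54 in crypts and 7.82, 5.65 and 6.64 in villi. Of the villus arrays, 41 was thus under the 30th percentile for Acaa1b and the other two were above it. Probes can cross-react between these copies, and the 2 probe sets annotated to both were higher in villi by 2.07 and 1.78.

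The membrane and antioxidant members followed the same direction. Cat, the catalase that removes the hydrogen peroxide formed by peroxisomal oxidation, read 7.03, 7.95 and 7.93 in crypts and 8.88, 8.90 and 9.76 in villi, a difference of 1.54 ± 0.33 (limma adjusted p = 0.01). Abcd3, which imports long-chain acyl-CoA across the peroxisomal membrane, differed by 1.38 ± 0.29 (limma adjusted p = 0.0097). Pex11a, which promotes peroxisome division, differed by 0.76 ± 0.13 (limma adjusted p = 0.0046). The exception was Pecr, a reductase of trans-2-enoyl-CoA that acts in chain elongation rather than in oxidation. Its signal was 7.23, 7.69 and 7.35 in crypts and 6.90, 6.52 and 6.59 in villi, so that every villus was below every crypt, with a mean difference of -0.76 ± 0.18 (limma adjusted p = 0.015).

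**Figure D2:**
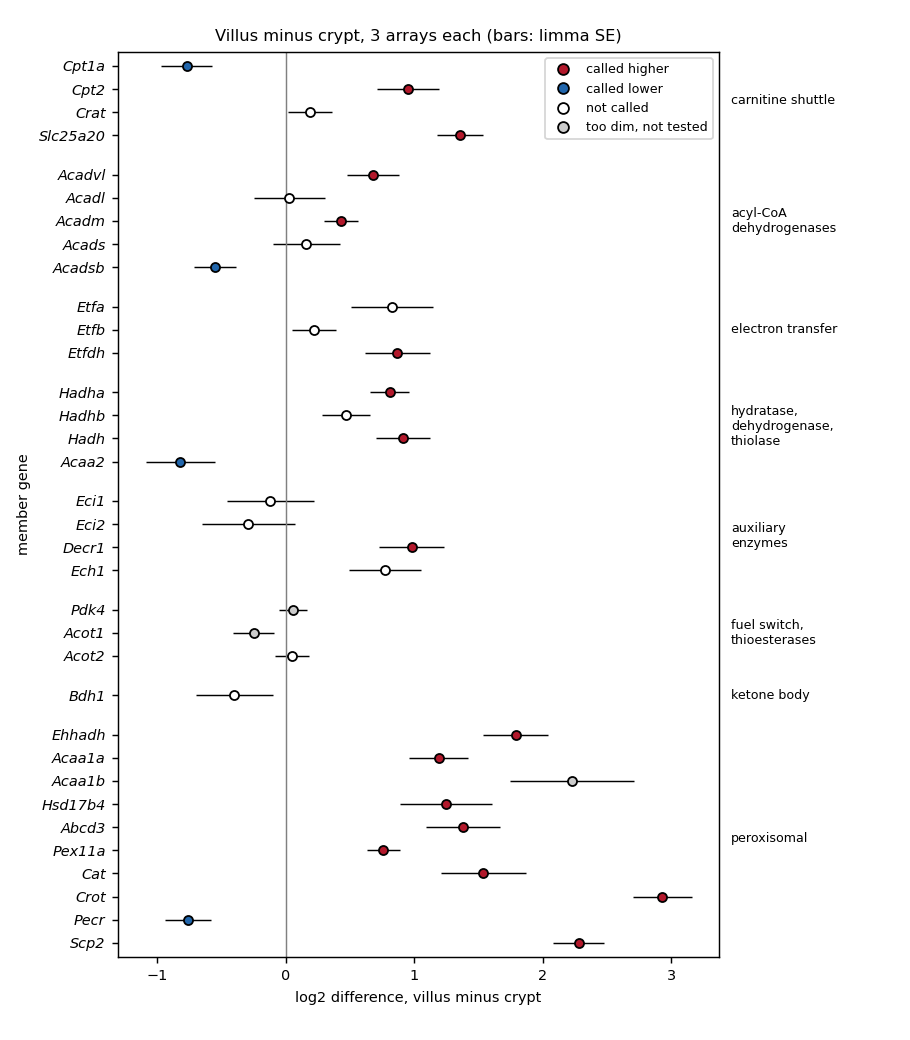
Each point is the log2 difference between the mean of 3 villus and the mean of 3 crypt arrays for 1 member, with the limma SE as a bar. Red and blue points were called higher and lower, white points were not called, and grey points were too dim to be tested. Crot (2.93) and Scp2 (2.28) lie farthest to the right, and Cpt1a (-0.77), Acadsb (-0.55), Acaa2 (-0.82) and Pecr (-0.76) are the blue points.

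The bases before the start sites of the 3 peroxisomal members with the lowest adjusted p are shown to let the motifs around them be seen. They are RefSeq sequences of GRCm38.p6, 250 bases up to the base before the annotated start, written 5′ to 3′ on the gene's strand. Capitals mark GGGCGG or its complement CCGCCC, the GC box, and AGGTCA or its complement, the core letters bound by nuclear receptors. All 3 genes lie on the minus strand, Crot at chr5:8997147-8997396, Scp2 at chr4:108118548-108118797 and Ehhadh at chr16:21787835-21788084.
Crot: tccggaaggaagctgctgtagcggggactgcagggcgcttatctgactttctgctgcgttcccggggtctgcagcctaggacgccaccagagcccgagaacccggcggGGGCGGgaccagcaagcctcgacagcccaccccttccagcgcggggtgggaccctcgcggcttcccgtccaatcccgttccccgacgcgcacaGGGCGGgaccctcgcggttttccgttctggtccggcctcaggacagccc
Scp2: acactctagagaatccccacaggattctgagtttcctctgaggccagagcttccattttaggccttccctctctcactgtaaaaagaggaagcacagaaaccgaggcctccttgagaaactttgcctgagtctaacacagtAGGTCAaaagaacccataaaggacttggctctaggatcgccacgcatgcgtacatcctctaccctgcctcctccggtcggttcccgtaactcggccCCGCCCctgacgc
Ehhadh: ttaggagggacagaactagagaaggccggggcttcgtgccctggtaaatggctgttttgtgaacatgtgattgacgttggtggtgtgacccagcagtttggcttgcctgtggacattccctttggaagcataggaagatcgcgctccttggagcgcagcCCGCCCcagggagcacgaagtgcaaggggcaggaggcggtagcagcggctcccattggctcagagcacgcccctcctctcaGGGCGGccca

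Crot has GC boxes starting 142 and 49 bases before the start, Ehhadh has them 91 and 10 bases before it, and Scp2 has 1 at 13 bases and AGGTCA at 109 bases. Of the 34 members, 30 matched a RefSeq start, with 32 windows, and Crat, Acaa2, Decr1 and Hsd17b4 did not match. GGGCGG on either strand occurred in 59.4% of member windows and in 32.7% of all 32851 windows of the same length. AGGTCA occurred in 15.6% of member windows (Acadm, Acadvl, Cat, Cpt1a and Scp2) and in 14% of all windows. AGGTCA repeated in the same direction with 1 base between, the element that PPAR binds with its partner RXR, occurred in 0 of the 32 member windows and in 0.0335% of all windows. With AGGNCA in place of AGGTCA, where N is any base, the values were 0 and 0.338%. Both forms of the repeat are so rare that 0 in 32 windows cannot tell members from other genes. TATAAA was in 0 member windows and 12.4% of all. A shorter motif can lie inside a longer one. The member windows had a median GC content of 58.8%, against 52.4% overall. These are letter matches in short windows and say nothing of binding elsewhere.

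The carnitine shuttle moved in opposite directions at its first and later steps. Cpt1a, the outer-membrane enzyme that sets the rate of entry, read 9.55, 9.24 and 9.66 in crypts and 9.06, 8.51 and 8.59 in villi. Every villus was below every crypt (difference -0.77 ± 0.20, limma adjusted p = 0.021). Slc25a20, the inner-membrane exchanger of acylcarnitine for carnitine, read 7.48, 7.96 and 7.93 in crypts and 9.35, 9.01 and 9.09 in villi. Its villus arrays were all higher, by 1.36 ± 0.18 or 2.57-fold (limma adjusted p = 0.0015), and a second probe set gave 1.40. Cpt2, which returns the fatty acid to coenzyme A inside, differed by 0.95 ± 0.24 (limma adjusted p = 0.021). Crat, the carnitine acetyltransferase, was not called at 0.19 ± 0.17, but its 2 probe sets disagreed, since the dimmer one was 1.25 higher in villi. Combined by their median they gave 0.72, which was called (limma adjusted p = 0.0066). The fit switched to that probe set when crypt 12 or crypt 21 was left out, and Crat was then called at 1.08 (limma adjusted p = 0.031) and 1.26 (limma adjusted p = 0.035).

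The acyl-CoA dehydrogenases open each turn of the cycle, each for its own chain length. Acadvl, for very long chains, had the largest difference of the 5, and read 9.44, 9.36 and 9.89 in crypts and 10.51, 9.98 and 10.23 in villi, without overlap (0.68 ± 0.20, limma adjusted p = 0.038). Acadm, for medium chains, differed by 0.43 ± 0.13 (limma adjusted p = 0.041). Acadl, for long chains, and Acads, for short chains, were not called at 0.03 ± 0.28 and 0.16 ± 0.26. Acadsb, which acts on short branched chains in isoleucine breakdown, read 7.44, 7.48 and 7.02 in crypts and 6.80, 6.80 and 6.67 in villi. It was called lower (-0.55 ± 0.16, limma adjusted p = 0.038).

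The dehydrogenases pass their electrons to the electron transfer flavoprotein and on to ubiquinone. Its oxidoreductase Etfdh read 7.04, 7.04 and 7.89 in crypts and 8.15, 8.03 and 8.40 in villi (0.87 ± 0.25, limma adjusted p = 0.033), with crypt 41 nearest the villi. The flavoprotein subunits Etfa (0.83 ± 0.32) and Etfb (0.22 ± 0.17) were not called. Etfa had a low crypt 12 (8.16, against 9.11 and 9.45 in the other crypts), and it was called without crypt 41, at 1.10 (limma adjusted p = 0.043).

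In the later steps of the cycle, Hadha, the subunit of the trifunctional protein with hydratase and dehydrogenase activity, differed by 0.81 ± 0.15 (limma adjusted p = 0.0062), and its thiolase subunit Hadhb was not called at 0.47 ± 0.19. Hadh, the dehydrogenase for shorter chains, read 11.55, 11.87 and 12.06 in crypts and 12.86, 12.36 and 12.98 in villi, with every villus higher (0.91 ± 0.21, limma adjusted p = 0.015). The thiolase Acaa2 went the other way, with 9.53, 9.38 and 9.23 in crypts and 9.11, 8.02 and 8.54 in villi. The difference was -0.82 ± 0.27 with a limma adjusted p that rounds to 0.05 and lies under the threshold, and without villus 41 it was -0.20 (limma adjusted p = 0.62). The other 2 probe sets of Acaa2 were lower in villi by more, at -0.95 and -1.48.

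The auxiliary enzymes prepare unsaturated chains for the cycle. The reductase Decr1 read 8.56, 8.73 and 9.31 in crypts and 9.87, 9.49 and 10.18 in villi, without overlap (0.98 ± 0.25, limma adjusted p = 0.021). The isomerases Eci1 (-0.12 ± 0.34), Eci2 (-0.29 ± 0.36) and Ech1 (0.77 ± 0.28) were not called. Villus 41 was low for Eci1, at 7.91 against 9.19 and 9.14 in the other villi, and for Eci2, at 6.69 against 8.07 and 7.80. Without that array Ech1 was called at 0.97 (limma adjusted p = 0.026). Pdk4, the kinase that shuts off pyruvate oxidation when fat is burned, was dim in all 8 arrays (4.24 to 4.37) and not tested. The cytosolic thioesterase Acot1 was likewise dim in adults, at 4.36 to 5.02, and its mitochondrial relative Acot2 was not called (0.05 ± 0.13). Bdh1, the mitochondrial enzyme that interconverts the ketone bodies acetoacetate and beta-hydroxybutyrate, read 8.91, 9.29 and 9.56 in crypts and 9.20, 8.19 and 9.18 in villi. The groups overlapped, and the difference of -0.40 ± 0.30 was not called (limma adjusted p = 0.36). It was -0.06 without villus 41, -0.25 without crypt 41 and -0.62 with quantile normalization, and was not called in any of these.

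Calls for Crot, Scp2, Ehhadh, Cat and Slc25a20 held under each of the 13 alternatives run, leaving out any 1 adult array included. The counts did not. The 16 members called higher became 10 without crypt 12 and 9 without crypt 21 or villus V275. The 4 called lower became 1 without crypt 12 or crypt 21, 2 without crypt 41 or villus 41, and 0 without villus V275. Crypt 12 was needed for the calls of Cpt1a, Cpt2, Acadvl, Acadm, Acadsb, Etfdh, Hadh, Acaa2, Decr1 and Hsd17b4, whose adjusted p without it ran from 0.06 for Hadh to 0.15 for Acaa2. Crypt 21 was needed for Cpt2, Acadvl, Acadm, Acadsb, Etfdh, Hadh, Acaa2, Decr1, Hsd17b4, Abcd3 and Pecr (limma adjusted p from 0.05 for Abcd3 to 0.14 for Acadvl, Acadsb and Acaa2). Villus V275 was needed for Cpt1a, Cpt2, Acadvl, Acadm, Acadsb, Etfdh, Hadh, Acaa2, Decr1, Hsd17b4 and Pecr (limma adjusted p from 0.051 for Hadh and Pecr to 0.13 for Acadm). Villus 12 was needed for Cpt2, Acadvl, Acadm, Acadsb, Etfdh and Hsd17b4, crypt 41 for Cpt1a, Acadm, Acaa2 and Hsd17b4, and villus 41 for Acadsb and Acaa2. With quantile normalization the calls of Cpt2, Acadvl (0.35), Acadm (0.17) and Hadha (0.47) were lost, and with a trended and robust prior those of Acadvl (limma adjusted p = 0.06), Acadm (0.1) and Acaa2 (0.052). Cpt2 was 0.60 where its probe sets were combined by their median, and stayed called. Acaa2 lost its call there too (-1.13, limma adjusted p = 0.11) and without the filter on dim genes (0.06).

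Other cell types differ between the isolated fractions. All 6 intraepithelial T cell genes were called higher in villi, with a summed level of 11.86 to 13.10 against 9.46 to 9.64 in crypts. Of these genes, Cd3g was under the 30th percentile in every crypt array and passed the filter through villi alone. Of 5 dividing-cell genes 4 were called lower in villi, with a summed level of 9.48 to 10.03 against 11.67 to 11.89. Summed levels of stromal genes were 9.20 to 9.42 in crypts and 9.30 to 9.57 in villi, and 1 of the 5 tested, Vim, was called higher in villi (0.65 ± 0.20, limma adjusted p = 0.045). Those of smooth muscle genes were 8.93 to 9.03 and 9.13 to 9.27, without overlap, and the 4 tested were not called, the largest difference being that of Acta2 (0.41 ± 0.17, limma adjusted p = 0.098). The 3 adipocyte genes measured summed to 7.98 to 8.08 in crypts and 8.63 to 9.60 in villi. Of them Cidec, a lipid droplet protein, read 4.53, 4.93 and 4.97 in crypts, all under the 30th percentile, and 7.36, 9.03 and 7.60 in villi. It was called higher in villi, having passed the filter through them alone. Retn was not called (0.06 ± 0.13). Adipoq, the defining adipocyte gene, was under the 30th percentile in every array of every group. The part of these other cell types' genes in the member differences was not tested.

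Related genes that are not members give the setting. Beside their counts, 16.9% of all genes tested were called higher in villi and 15% lower. Of 20 other peroxisomal enzymes and carriers tested, 3 were called higher in villi and 2 lower, with a median of 0.21. The largest were Phyh (1.92 ± 0.20), which starts phytanic acid breakdown, and Acot4 (1.12 ± 0.16), a peroxisomal thioesterase that passed the filter through villi alone, so that its size is inexact. Of 13 peroxisome assembly genes 4 were called higher and 1 lower, with a median of 0.09, led by Pex16 (1.48 ± 0.17) and Pex19 (1.02 ± 0.19), which place proteins in the peroxisomal membrane. Of 5 fatty acid activation and entry genes 2 were called higher, Slc27a4 (3.56 ± 0.30), a fatty acid transport protein, and Acsl5 (2.59 ± 0.25), an acyl-CoA synthetase. The citric acid cycle had 5 of 16 called higher and the rest not called, led by Ogdh (1.82 ± 0.22) and Mdh2 (1.46 ± 0.23), and the respiratory chain had 1 of 18 higher, Uqcrfs1 (0.87 ± 0.20). Of the other ketone body genes, the 3 tested were not called, with differences from -0.50 to -0.14. Cpt1b, the carnitine palmitoyltransferase of muscle, is not analysed here.

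The same 8-array table places E12 endoderm, the fetal forerunner of this epithelium, beside the adult fractions, but with 1 array only. Its spread was taken to equal that of the adult groups, and its tests have larger SEs (0.18 to 0.51). Both comparisons use that single array, and they share the crypts or villi with the comparison above, so their values are set side by side and not counted as separate support. Against E12 endoderm, crypts had 3 of 31 tested members called higher and 1 lower, where 8.2% of all 10082 genes tested were called higher and 15.1% lower. Villi had 6 of 31 called higher and 1 lower, against 17% and 22.1% of all genes. Both counts of higher members hold Ehhadh, which passed the filter on dim genes through the adult arrays alone. Of all calls between crypt and endoderm 35.2% were higher in crypts, and 46.4% after quantile normalization, which moved the median of all genes from 0.05 to 0.11.

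Pex11a and Acadvl stepped upward from endoderm through crypt to villus. Pex11a read 7.11 in endoderm, 8.44, 8.57 and 8.65 in crypts and 9.38, 9.24 and 9.32 in villi, and was called higher than endoderm by 1.44 ± 0.19 in crypts (limma adjusted p = 0.0021) and 2.20 ± 0.19 in villi (limma adjusted p = 0.00015). Acadvl read 8.43 in endoderm, below every adult array, and was higher by 1.13 ± 0.29 in crypts (limma adjusted p = 0.027) and 1.81 ± 0.29 in villi (limma adjusted p = 0.002). Its call in crypts was lost without crypt 12 (limma adjusted p = 0.053) or crypt 21 (limma adjusted p = 0.051). Ehhadh read 4.58 in endoderm, under the 30th percentile, 6.51 ± 0.29 (SD, n = 3) in crypts and 8.29 ± 0.43 in villi, and with endoderm near background its differences from endoderm have no exact size.

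Other members were called between endoderm and villi but not between endoderm and crypts. Scp2 read 9.69 in endoderm, inside the crypt range of 9.41 to 10.14, and villi were 2.34 ± 0.28 higher than endoderm (limma adjusted p = 0.00053). Acaa1a read 9.45 in endoderm and 9.51, 9.74 and 9.88 in crypts, and villi were 1.45 ± 0.32 higher than endoderm (limma adjusted p = 0.0097). Slc25a20 read 8.34 in endoderm, above all crypts, and villi were 0.81 ± 0.26 higher (limma adjusted p = 0.041). That call was lost without villus 12 (limma adjusted p = 0.08), villus V275 (0.07), crypt 21 (0.063) or crypt 41 (0.053), the crypts entering through the residual spread alone, and with a trended and robust prior (0.052). Pecr read 7.44 in endoderm, inside the crypt range, and was lower in villi (difference -0.77 ± 0.25, limma adjusted p = 0.043), a call lost with quantile normalization (0.07) and without crypt 12, crypt 41, villus 41 or villus V275 (limma adjusted p = 0.05 to 0.092).

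Crot had a valley in the crypt. Its endoderm signal of 8.80 lay between villus 12 (8.59) and villus 41 (8.89), while the crypts stood at 5.93 to 6.24, so that crypts were lower than endoderm (difference -2.74 ± 0.33, limma adjusted p = 0.0016) and villi were not called against it (0.19 ± 0.33, limma adjusted p = 0.67). Cat read 8.89 in endoderm, level with villi 12 and 41 (8.88 and 8.90) and above all crypts, but crypt minus endoderm was not called (-1.26 ± 0.46, limma adjusted p = 0.087). Hsd17b4 read 8.84 in endoderm, between villus 41 and the other villi and above all crypts, and was not called either (-0.81 ± 0.51, limma adjusted p = 0.27). Without villus 41, which enters this comparison through the residual spread alone, the limma adjusted p of Hsd17b4 was 0.031, and Cat was called at -1.33 when its probe sets were combined by their median (limma adjusted p = 0.043).

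Acot1 was the reverse of the villus genes. It read 8.80 in E12 endoderm and 6.01 in E12 mesenchyme, and 5.02, 4.59 and 4.53 in crypts and 4.36, 4.48 and 4.55 in villi, all adult arrays lying under the 30th percentile. It therefore did not pass the filter on dim genes. With 1 endoderm array and no adult array above the 30th percentile, no p-value is given for Acot1. Its mean difference from endoderm was -4.09 in crypts and -4.34 in villi. The adult signals are near background, so these sizes are inexact. A probe set annotated to both Acot1 and Acot2 read 9.63 in endoderm, 6.40 in crypts and 6.39 in villi on average. The tested members not called against endoderm had differences from -1.36 (Eci2, villus minus endoderm) to 1.12 (Abcd3, villus minus endoderm). Among them, Cpt1a read 8.59 in endoderm and had means of 9.48 in crypts and 8.72 in villi. Crypt minus endoderm was 0.90 ± 0.28 for Cpt1a. It was called with quantile normalization (1.25) and without villus 12 or villus 41, which enter through the residual spread alone. Without villus 41, villi had 12 members called higher than endoderm instead of 6, the additions being Cpt2 (1.06), Hadha (0.65), Hadh (0.89), Decr1 (0.97), Hsd17b4 (0.88) and Abcd3 (1.39), and Eci2 was called lower (-0.94, limma adjusted p = 0.034). Without villus 12, Acaa2 (-1.26) and Eci2 (-1.63) were called lower in villi than in endoderm.

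**Figure D3:**
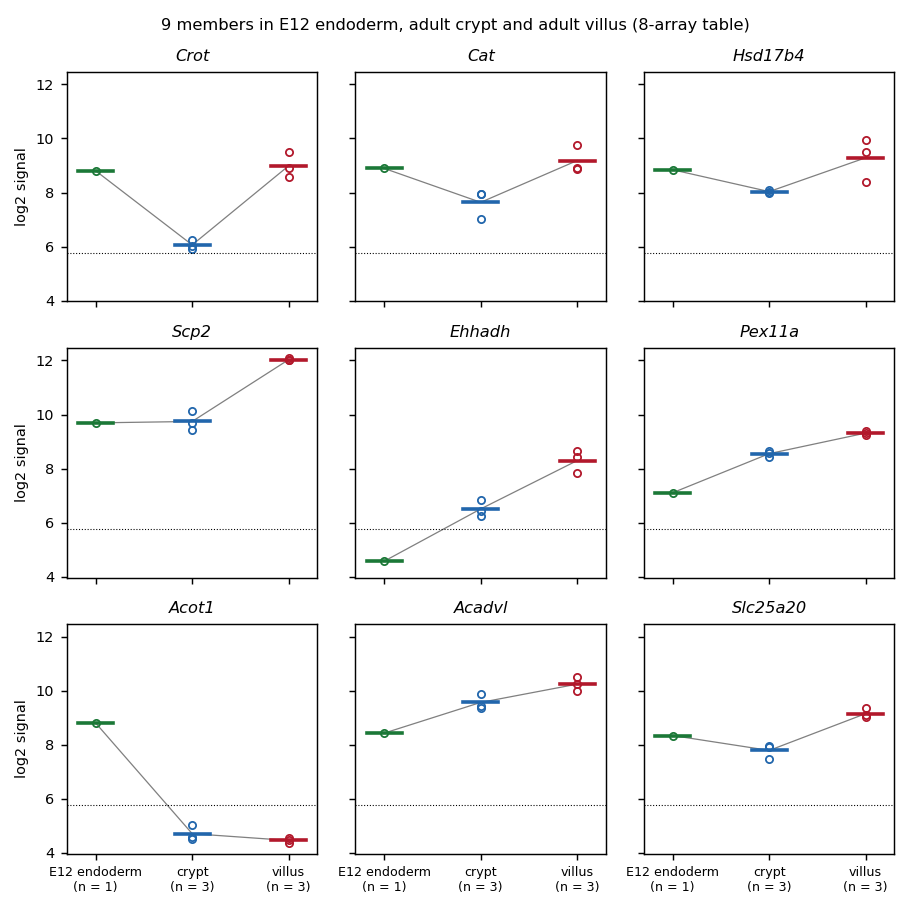
Each panel shows the log2 signal of 1 member in the 8-array table, with 1 circle per array and a bar at the group mean, for E12 endoderm (1 array), crypt (3) and villus (3). The dotted line is the 30th percentile of the table (5.782). Crot falls from 8.80 in endoderm to a crypt mean of 6.06 and stands at 8.99 in villi, Ehhadh (under the 30th percentile in endoderm) and Pex11a climb at each step, and Acot1 is above the line in endoderm only.

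Endoderm and mesenchyme of the E12 intestine were compared in the 6-array table to ask how the layers differ before villi form. Of 31 members tested, 17 were called higher in endoderm and 6 lower, with a median difference of 0.37, counting Acot2, which passed the filter on dim genes through the endoderm arrays alone. Of all 9442 genes tested, 27.7% were called higher and 25.4% lower, with a median of 0.03. Among mitochondrial and related members, which count cytosolic Acot1, 11 of 22 were called higher and 5 lower (median 0.28). Among peroxisomal members 5 of 8 were called higher and 1 lower (median 0.36).

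Bdh1 differed most. It read 6.40, 6.53 and 6.54 in mesenchyme replicates 2, 3 and 4 and 9.34, 9.22 and 9.22 in endoderm replicates 2, 3 and 4. The replicates of a layer were nearly level, and the difference was 2.77 ± 0.09 (n = 3 per layer), or 6.82-fold (limma adjusted p = 6.1e-08). The 35-fetus pair gave 9.12 and 6.21, a difference of 2.91. Acot1 read 7.19, 7.47 and 7.17 in mesenchyme and 9.74, 9.91 and 9.76 in endoderm, a difference of 2.53 ± 0.11 or 5.76-fold (limma adjusted p = 3.4e-07), and 2.80 in the 35-fetus pair. Acot2 read 4.43, 4.39 and 4.40 in mesenchyme, all under the 30th percentile, and 5.11, 5.10 and 4.98 in endoderm. Having passed the filter through endoderm alone, it is given as levels only. The probe set shared by Acot1 and Acot2 was 2.13 higher in endoderm.

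The 250 bases before the start of Acot1, at chr12:84009252-84009501 on the plus strand of GRCm38.p6 from RefSeq, are shown because Acot1 was highest in fetal endoderm in both tables, with GC box letters in capitals as above.
Acot1: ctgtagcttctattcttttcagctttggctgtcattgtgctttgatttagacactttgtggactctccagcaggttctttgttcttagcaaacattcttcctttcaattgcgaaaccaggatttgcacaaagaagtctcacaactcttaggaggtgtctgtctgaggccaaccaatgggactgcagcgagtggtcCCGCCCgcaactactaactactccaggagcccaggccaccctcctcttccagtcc
The window holds 1 GC box, 55 bases before the start, and no AGGTCA. Its GC content of 48.8% is lower than the 69.6% of Crot, the 60.4% of Ehhadh and the 53.6% of Scp2.

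Of the 4 carnitine shuttle members, Cpt1a and Cpt2 were called higher in endoderm and Crat lower. Cpt2 read 7.63, 7.32 and 7.51 in mesenchyme and 8.99, 8.77 and 8.68 in endoderm (1.33 ± 0.12, limma adjusted p = 2.9e-05), and Cpt1a differed by 0.73 ± 0.12 (limma adjusted p = 0.0011). Slc25a20 was not called (0.15 ± 0.11). Crat read 6.49, 6.29 and 6.24 in mesenchyme and 6.03, 5.92 and 5.86 in endoderm, and was called lower (-0.40 ± 0.10, limma adjusted p = 0.0096). Its other probe set was 0.25 higher in endoderm, and the median of both gave -0.08 (limma adjusted p = 0.59). With quantile normalization the call was lost as well (-0.28, limma adjusted p = 0.056).

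Of the 5 acyl-CoA dehydrogenases 3 were called higher in endoderm and 2 lower. Acadm read 7.95, 7.87 and 7.97 in mesenchyme and 9.22, 9.15 and 9.20 in endoderm (1.26 ± 0.08, limma adjusted p = 3.6e-06). Acadl (0.96 ± 0.08, and 0.54 from the median probe set) and Acads (0.74 ± 0.09) were also called higher. Acadvl read 8.37, 8.43 and 8.48 in mesenchyme and 8.13, 8.02 and 7.96 in endoderm, and was called lower (-0.39 ± 0.09, limma adjusted p = 0.0058). Acadsb read 7.50, 7.69 and 7.60 in mesenchyme and 6.58, 6.57 and 6.71 in endoderm, a clear gap (-0.98 ± 0.09, limma adjusted p = 3.9e-05).

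Of the electron transfer genes, Etfb read 9.94, 10.06 and 9.97 in mesenchyme and 9.72, 9.74 and 9.81 in endoderm and was called lower (-0.23 ± 0.08, limma adjusted p = 0.045). That call was lost with the replicate number as a block (limma adjusted p = 0.065) and without any 1 of the 6 arrays (0.058 to 0.15), and the 35-fetus pair had the opposite sign (0.19). Etfa (-0.19 ± 0.10) and Etfdh (0.04 ± 0.10) were not called.

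In the later steps, Hadh read 11.38, 11.43 and 11.48 in mesenchyme and 12.62, 12.40 and 12.38 in endoderm (1.04 ± 0.10, limma adjusted p = 3.6e-05), and 2 further probe sets gave 0.62 and 1.01. Hadha was not called (-0.14 ± 0.09). Hadhb and Acaa2 were called higher by 0.42 each (SE 0.13 and 0.10). Without probe sets prone to cross-reaction the values were 0.19 and 0.23 and no longer called (limma adjusted p = 0.15 and 0.11). Hadhb was also lost without endoderm 2 (limma adjusted p = 0.052) and with all 8 E12 arrays (0.21, limma adjusted p = 0.074). The remaining probe set of Acaa2 gave -0.06. Hadhb, Acaa2 and Crat stand here on other probe sets than in the 8-array table, because the brightest one differs. Of the auxiliary enzymes, Eci1 read 8.13, 8.04 and 8.23 in mesenchyme and 9.13, 8.81 and 8.82 in endoderm (0.79 ± 0.11, limma adjusted p = 0.00052). Eci2 read 9.17, 9.22 and 9.08 in mesenchyme and 9.01, 8.84 and 8.72 in endoderm and was called lower (-0.30 ± 0.10, limma adjusted p = 0.037). It was lost without any 1 array other than endoderm 2 (limma adjusted p = 0.061 to 0.14), and with all 8 E12 arrays (-0.19, limma adjusted p = 0.17), and the 35-fetus pair gave 0.13. Decr1 (0.00 ± 0.10) and Ech1 (-0.10 ± 0.09) were not called. Pdk4 was dim in all 6 arrays, at 4.12 to 4.71, and was not tested.

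Among peroxisomal members, Crot led here too. It read 7.82, 7.69 and 7.96 in mesenchyme and 9.34, 9.58 and 9.53 in endoderm (1.66 ± 0.11, or 3.16-fold, limma adjusted p = 3.8e-06), and the 35-fetus pair gave 1.76. Pecr (0.56 ± 0.13), Cat (0.52 ± 0.08), Scp2 (0.37 ± 0.11) and Abcd3 (0.36 ± 0.09) were called higher by less. Combining probe sets by their median gave 0.28 for Pecr and 0.58 for Scp2. The call of Scp2 was lost without mesenchyme 2 or 3 or endoderm 3 or 4 (limma adjusted p = 0.061 to 0.079). Hsd17b4 read 9.26, 9.33 and 9.30 in mesenchyme and 8.73, 8.81 and 8.75 in endoderm, and was lower in every endoderm array (-0.53 ± 0.08, limma adjusted p = 0.00066). Acaa1a (-0.02 ± 0.11) and Pex11a (-0.17 ± 0.12) were not called. Ehhadh (4.18 to 4.70 over all 6 arrays) and Acaa1b (4.13 to 4.95) were too dim to be tested.

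**Figure D4:**
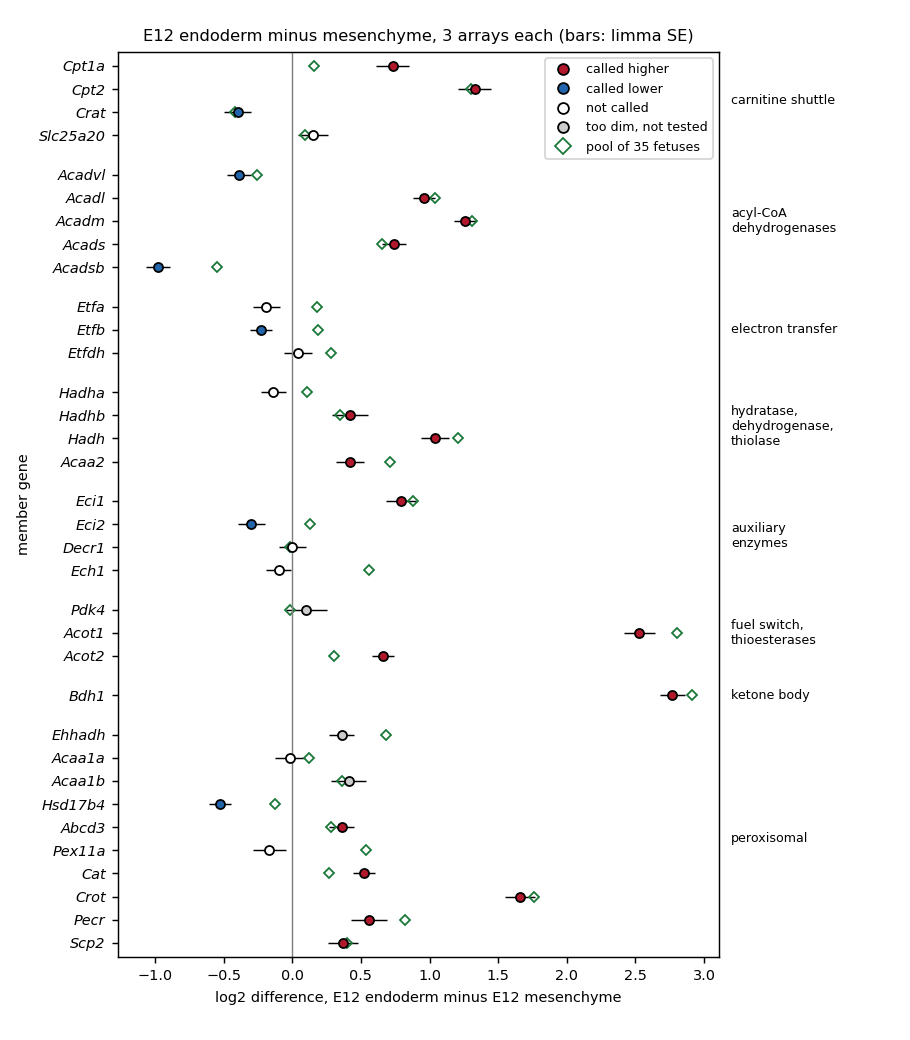
Each circle is the log2 difference between the mean of 3 E12 endoderm and the mean of 3 E12 mesenchyme arrays of the 6-array table, with the limma SE as a bar, coloured by call as in the legend. Green diamonds are the same difference in the single 35-fetus pair of the 8-array table. Bdh1 (2.77), Acot1 (2.53) and Crot (1.66) lie farthest to the right, with diamonds close by, and Acadsb (-0.98) lies farthest to the left.

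The pair of arrays from 35 fetuses, which the test of the E12 layers did not use, had the same sign for 21 of the 23 members called (91.3%) and for 4722 of all 5010 genes called (94.3%). The 2 exceptions were Etfb and Eci2. Among 5 tested genes of a liver cell list, 4 were called higher in endoderm, with a summed level of 11.98 to 12.32 against 7.81 to 8.49 in mesenchyme. Of these, Afp and Fgb passed the filter through endoderm alone. Alb, the defining gene of mature liver cells, was under the 30th percentile in all 6 arrays. The part of the liver list in the member differences was not tested. Of 5 blood cell genes 3 could be tested, and all 3 were called lower in endoderm.

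In the same comparison, 27.7% of all genes tested were called higher in endoderm and 25.4% lower. Of 15 other peroxisomal enzymes and carriers tested, 7 were called higher and 2 lower. They were led by Phyh (1.29 ± 0.09) and by Slc25a17 (-0.99 ± 0.11), a peroxisomal cofactor carrier. Of the 7, Pipox passed the filter through endoderm alone. Peroxisome assembly genes were split, with 3 of 13 higher and 3 lower, led by Pex26 (1.64 ± 0.08) and Pex7 (0.97 ± 0.12), which act in protein import. Of 7 fatty acid activation and entry genes 4 were called higher and 1 lower, among them Acsl5 (1.92 ± 0.09). Of the 4, Slc27a2 passed the filter through endoderm alone. Cd36, a fatty acid receptor at the cell surface, was the lower one, at 6.37, 6.47 and 6.12 in mesenchyme and 3.93, 4.31 and 4.13 in endoderm. It passed the filter through mesenchyme alone, so its difference has no exact size. Of the ketone body genes, Slc16a1, which carries ketone bodies and lactate across the cell membrane, was higher in endoderm (1.44 ± 0.14), and Oxct1, the enzyme that starts ketone body use, was lower (-0.96 ± 0.09). The citric acid cycle had 4 of 16 called higher and 1 lower, led by Idh3a (1.30 ± 0.12) and Suclg2 (0.39 ± 0.12). The respiratory chain had 1 of 18 called higher, Cox5a (0.51 ± 0.09).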

How the data were processed

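Total RNA from 14 mouse samples was measured on single-colour arrays labelled with phycoerythrin. The deposited values are log2 signals that the authors made with RMA, per the submitters' processing notes; the RMA version is not given in the sources used here. No read depth exists for arrays, whose number limits precision. Of 22690 probe sets, 20393 had 1 gene symbol and 691 had several, from the platforms' gene table; 20364 were found by Entrez identifier in the RefSeq gene table of GRCm38.p6, and 0 symbols needed an update. The brightest probe set on average stood for a gene. limma 3.58.1 (lmFit, eBayes) under R 4.3.3 tested genes whose signal passed the 30th percentile in 3 or more arrays, and p-values were adjusted by the Benjamini-Hochberg method over every gene tested. The test was checked on simulated data. Villus and crypt were fitted on the 6 adult arrays, the E12 layers on the 6-array table, and the comparisons with E12 endoderm on all 8 arrays of the first table in 4 groups.

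The members and lists were chosen with earlier results of these data known. Arrays were given in full for the called member with the largest difference in a role and comparison and for called members that opposed their role, and the 2 largest called genes were named from each related list; other values were added after they had been seen.

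Both E12 layers carry the replicate numbers 2, 3 and 4. Same-numbered arrays deviated together from their layer means, with correlations over genes of 0.2112, 0.234 and 0.1057, each above 0.1. Endoderm 3 and mesenchyme 4, with unlike numbers, reached 0.129. The main fit of the layers left the numbers out, so its SEs and p-values are unpaired. The numbers entered as a block in an alternative only. The alternatives were quantile normalization, no filter, the median of a gene's probe sets, leaving out probe sets prone to cross-reaction, a trended and robust prior, leaving out each replicate, the replicate number as a block, and more arrays in the fit. The labels do not say whether adult samples with the same number came from 1 mouse, and they name no batch.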

Additional observations from a re-analysis of the deposited data

How the results depend on the processing

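Over the 4 comparisons, 1471 alternative values were computed for single members. Of these 1287 kept their direction and side of the threshold, 105 lost a call, 27 gained one and 52 changed sign, 0 of them for a called member. With a replicate block for the adult numbers 12 and 41, which the labels do not state to be shared animals and which leaves 1 crypt and 1 villus unpaired, 5 members were called higher in villi and 0 lower, and 836 and 424 of all genes. Of the 2 adult pairs 1 had a deviation correlation above 0.1 (0.1604 for number 12 and 0.06864 for 41). In the E12 layers the replicate block left 17 members higher and 5 lower, and changed the call of Etfb alone. Leaving out 1 array at a time gave 9 to 17 members higher and 0 to 3 lower in villi than crypts, and 1024 to 1553 and 827 to 1540 of all genes. Crypts against E12 endoderm gave 1 to 3 members lower, 433 to 1076 genes higher and 907 to 1907 lower, and villi against E12 endoderm gave 5 to 12 members higher and 0 to 3 lower. With the median of a gene's probe sets, 1 member was lower in villi than in crypts, 2 in crypts than in endoderm and 0 in villi than in endoderm. Without the filter on dim genes the last 2 counts were 2 and 2, which adds Acot1, and with quantile normalization 0 members were lower in villi than in endoderm.

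The values named in the text that changed sign were all uncalled. For villus minus crypt, quantile normalization gave -0.08 for Acadl, -0.13 for Acads and -0.19 for Etfb, and leaving out 1 array gave -0.20 to 0.25 for Acadl, -0.11 to 0.40 for Acads, -0.34 to 0.30 for Eci1 and -0.57 to 0.12 for Eci2. For villus minus endoderm, leaving out 1 array gave -0.06 to 0.39 for Crot. Between the E12 layers, Decr1 was -0.03 with quantile normalization and with the median of probe sets, and with all 8 E12 arrays Decr1 was -0.00, Ech1 0.07, Acaa1a 0.02 and Pex11a 0.01. Leaving out 1 of the 6 arrays gave -0.04 to 0.06 for Decr1, -0.09 to 0.08 for Acaa1a and -0.03 to 0.10 for Etfdh. The cause of these changes was not tested.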

Other observations

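Other PPAR target genes outside the member list, and a list of regulators that includes the PPARs, were compared along the adult axis too. The part of PPAR in the member differences was not tested. Across all genes tested, 16.9% were called higher in villi and 15% lower. Of 13 other PPAR target genes tested, 9 were called higher in villi than in crypts and the other 4 were not called, with a median difference of 1.12. Fabp2, among those called higher, is also on the list of enterocyte genes. The largest were Fabp1 (5.68 ± 0.51, limma adjusted p = 0.00035), the liver-type fatty acid binding protein of enterocytes, and Vnn1, a pantetheinase, which read 5.45, 5.60 and 5.61 in crypts and 11.11, 10.85 and 11.27 in villi. Vnn1 passed the filter on dim genes through villi alone, and the crypt arrays of Fabp1 (5.77 to 5.98) lay at the 30th percentile, so both sizes are inexact. Of 15 regulators 7 were called higher and 3 lower. Creb3l3, a membrane-bound transcription factor that acts with PPARα in fasting, read 8.27, 8.33 and 7.89 in crypts and 11.08, 11.46 and 11.31 in villi, and differed by 3.12 ± 0.18 (limma adjusted p = 6.9e-05). Klf15, a fasting factor in liver and muscle, was lower (-1.68 ± 0.19, limma adjusted p = 0.00081). Ppara itself read 7.16, 7.56 and 7.29 in crypts and 7.27, 6.11 and 6.74 in villi, and its difference of -0.63 ± 0.28 was not called (limma adjusted p = 0.13). The coactivators Ppargc1a and Ppargc1b, which drive mitochondrial gene expression, went opposite ways, at 1.42 ± 0.36 (limma adjusted p = 0.02) and -1.25 ± 0.40 (limma adjusted p = 0.048). Villus 41 was lowest among villi for Ppargc1a (6.38 against 7.43 and 7.93). The crypt mean of Ppargc1a implied by these values lay near the 30th percentile, so that size is inexact.

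Between the E12 layers the targets were split, with 4 of 10 called higher in endoderm and 3 lower, with Fabp2 at 4.00 to 4.24 in mesenchyme and 9.19 to 9.57 in endoderm and Fabp1 at 4.10 to 4.49 and 8.22 to 8.46. Both passed the filter through endoderm alone, so their differences have no exact size. Of 14 regulators 6 were called higher and 1 lower. Beside both lists, 27.7% of all genes tested were called higher in endoderm and 25.4% lower. Hnf4a, a receptor of gut and liver epithelium, was 4.73 ± 0.22 higher and Pparg 2.05 ± 0.15 higher. Ppara was called higher (0.71 ± 0.12). The mesenchyme arrays of Pparg (4.55 to 4.91) and Ppara (4.65 to 4.92) lay near the 30th percentile, so both sizes are inexact. Ppargc1a read 5.55 to 5.64 in mesenchyme and 3.93 to 4.52 in endoderm, the latter under the 30th percentile. Ppargc1a passed the filter through mesenchyme alone, and it is the 1 regulator counted as lower.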
